A study of Homo sapiens with 4 samples.

Results

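The MYC, MAX and MondoA network was described by 10 genes, taken by symbol from the 32955 genes of the deposited table. They were the activator MYC, its partner MAX, the repressors MXD1, MXD3, MXD4 and MNT, the MondoA factor MLXIP with its partner MLX, and the MondoA targets TXNIP and ARRDC4. Proteins of this network bind DNA in pairs at E-boxes. MYC paired with MAX activates genes of ribosome production, metabolism and cell growth, whereas MXD proteins and MNT compete for MAX and repress such genes. MondoA, encoded by MLXIP, pairs with MLX, enters the nucleus when phosphorylated glucose accumulates, and switches on TXNIP and ARRDC4, which are alpha-arrestins that restrain glucose uptake. MYC is known as a driver of proliferation in breast cancer.

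RNA-seq was performed on 4 libraries of MDA-MB-231, an established human breast cancer cell line without estrogen receptor. Mimic NC, a negative control oligonucleotide, had been transfected in 2 of them, and miR-217 mimic, a synthetic RNA that acts as the microRNA miR-217, in the other 2. All cells were grown in DMEM with fetal bovine serum, and the time after transfection is not given in the sources used here. The libraries of each group are numbered 1 and 2 in the sample labels, which do not say what the number marks or whether the libraries came from separate cultures, so the p-values measure the spread between these libraries, which may be technical.

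The recovered depth was 32635814 to 57933183 reads on genes per library, and each library numbered 2 was smaller than the library numbered 1 of its group. Mitochondrial genes took 3.56% and 3.58% of the reads in the libraries numbered 1, and 3.97% and 4.78% in those numbered 2. The first principal component held 71.3% of the variance and separated the numbers. VIM, CD44, KRT18, CAV1 and AXL, which MDA-MB-231 is known to express, were at 5.17 RPKM or above in every library, and ESR1, CDH1, GATA3 and KRT5, which it is known to lack, summed to 0.345 to 0.647 RPKM. KRT18 and CAV1 were lower in the libraries numbered 2, by log2 differences of -0.98 and -0.50 (adjusted p = 0.0209 and 0.0399 in limma). CD44 and AXL differed the other way, by 0.56 and 0.38 (adjusted p = 0.0678 and 0.0565), and VIM by -0.17 (0.341). RPKM is the number of reads on a gene scaled by its exon length and by all reads on genes in the library. In such bulk RNA, fewer cells of a kind and less RNA per cell cannot be told apart.

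The sequence that the transfected mimic carries sets which transcripts it can pair with, and the mature hsa-miR-217-5p of RefSeq (chr2:55983020-55983042, minus strand, GRCh38.p14) is therefore shown with its seed, bases 2 to 8, in capitals.
hsa-miR-217-5p: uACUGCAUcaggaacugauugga

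Matches to the seed were searched on the transcript strand of the longest 3'UTR of each gene in GENCODE 29, as ATGCAGT (seed bases 2 to 8) and TGCAGTA (seed bases 2 to 7 followed by A). These overlap in ATGCAGTA, which none of the 10 genes held. Among 9913 tested genes with a 3'UTR, 14.5% held ATGCAGT and 21.7% held either. Of the 10 network genes, 3 held ATGCAGT and 4 held either, and their median 3'UTR length was 2626 bases compared with 1326 bases over the tested genes. MXD1 held 2 matches, MXD3 and MLX held 1 each, and MAX held only TGCAGTA. The windows are shown on the transcript strand (GRCh38) because they are the places in the network where the mimic's seed could pair, with the match in capitals.
MAX, chr14:65077615-65077644, minus strand: ggtgctctgccTGCAGTAgggatcacacct
MXD1, chr2:69941223-69941252, plus strand: aatttaatttcATGCAGTgggaaaatatat
MXD1, chr2:69942156-69942185, plus strand: gtttgactctgATGCAGTgtgtttagcgtg
MXD3, chr5:177305557-177305586, minus strand: catctagacgcATGCAGTgttttagccgcc
MLX, chr17:42572334-42572363, plus strand: tctaaataccaATGCAGTtttgctacggtt
The longest 3'UTRs of MYC, MXD4, MNT, MLXIP, TXNIP and ARRDC4 held neither run of letters.

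The promoters of TXNIP and ARRDC4 are shown because MondoA paired with MLX is known to act at both through paired CACG sites. Both genes were also higher in the libraries numbered 2, and a role of MondoA in that difference was not tested. RefSeq promoters (GRCh38.p14) run from 250 bases before to 50 bases after the start site, and were searched on both strands for CACGTG, the E-box, for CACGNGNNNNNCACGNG, a pair of such sites 5 bases apart, and for CCAAT. Of 35116 promoters, 7.26% held CACGTG, 0.057% held the paired pattern and 34.6% held CCAAT. A TXNIP promoter (chr1:145996530-145996829, minus strand) held the paired pattern with its first base at -88 from the start site, and CCAAT at -140, on the opposite strand, and at -105.
TXNIP promoter: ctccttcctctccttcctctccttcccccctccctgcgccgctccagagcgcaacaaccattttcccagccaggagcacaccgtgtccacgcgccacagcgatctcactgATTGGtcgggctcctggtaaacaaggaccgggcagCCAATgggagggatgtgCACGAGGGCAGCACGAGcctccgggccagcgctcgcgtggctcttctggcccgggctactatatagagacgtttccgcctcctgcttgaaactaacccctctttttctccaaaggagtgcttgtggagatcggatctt
The ARRDC4 promoter (chr15:97960453-97960752, plus strand) held CACGTG at -210 and CCAAT at -187, on the opposite strand, at -128 and at -67, but not the paired pattern. The capitals in both sequences mark these matches. The absence of the paired pattern from the ARRDC4 promoter says only that sites so spaced are not in this window.
ARRDC4 promoter: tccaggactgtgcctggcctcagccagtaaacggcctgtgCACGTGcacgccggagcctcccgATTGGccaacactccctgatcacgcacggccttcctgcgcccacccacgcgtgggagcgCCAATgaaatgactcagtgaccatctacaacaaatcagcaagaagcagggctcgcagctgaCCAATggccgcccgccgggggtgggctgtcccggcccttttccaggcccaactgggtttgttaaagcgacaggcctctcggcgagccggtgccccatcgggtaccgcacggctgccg
A second TXNIP promoter entry held none of the 3 patterns. CACGTG was also present in the promoters of MXD4, MNT and MLX. It was absent from those listed for MAX, MXD1, MXD3 and MLXIP, which says only that these letters are not in these windows.

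Some of these genes lie over other genes, which bears on their values. Whether the authors counted reads by strand, and how reads on shared bases were assigned, is not given in the sources used here. MXD3 shares 22.5% of its exon bases with PRELID1 on the opposite strand, which was at 89.5 to 98.7 RPKM. If the reads of PRELID1 lay evenly over its exons and those on the shared bases were counted for MXD3, they would amount to 20.1 to 22.2 RPKM, 92.9% to 99.7% of the MXD3 value. How many of the reads came from MXD3 itself was not determined. By the same sum, the 18.1% of MLX shared with PSMC3IP on the opposite strand would amount to 49.7% to 65.6% of the MLX value, and the 3.73% of MXD1 shared with SNRNP27 on the same strand to 30.3% to 43.5% of the MXD1 value. It would be 4.37% to 5.92% for MNT with RP1-59D14.1 and 2.95% to 3.33% for MAX with RP11-840I19.3. The levels of MXD3, MLX and MXD1 are uncertain by these shares, whereas MYC, MXD4, MLXIP, TXNIP and ARRDC4 share no exon base with another listed gene.

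All 10 genes passed the filter of a mean of at least 1 RPKM, as did 13871 genes in all. Averaged over the 4 libraries, MYC was the most abundant at 26.6 RPKM, followed by MXD3 at 21.9, MLX at 16.9, MAX at 16.5 and TXNIP at 8.26. MXD1 at 4.34, MXD4 at 3.71, MNT at 3.50, MLXIP at 2.15 and ARRDC4 at 2.01 RPKM were lower. Across libraries the ranges of MLX and MAX overlapped, as did those of MXD1, MXD4 and MNT, and those of MLXIP and ARRDC4. TXNIP at its lowest, 5.13 RPKM, lay just under the highest MXD1 value of 5.28 RPKM. MYC, at 24.2 to 31.3 RPKM, lay above MXD3, at 21.6 to 22.2 RPKM, in every library. The places of MXD3, MLX and MXD1 in this order rest on their values with the shared bases included.

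**Figure D1:**
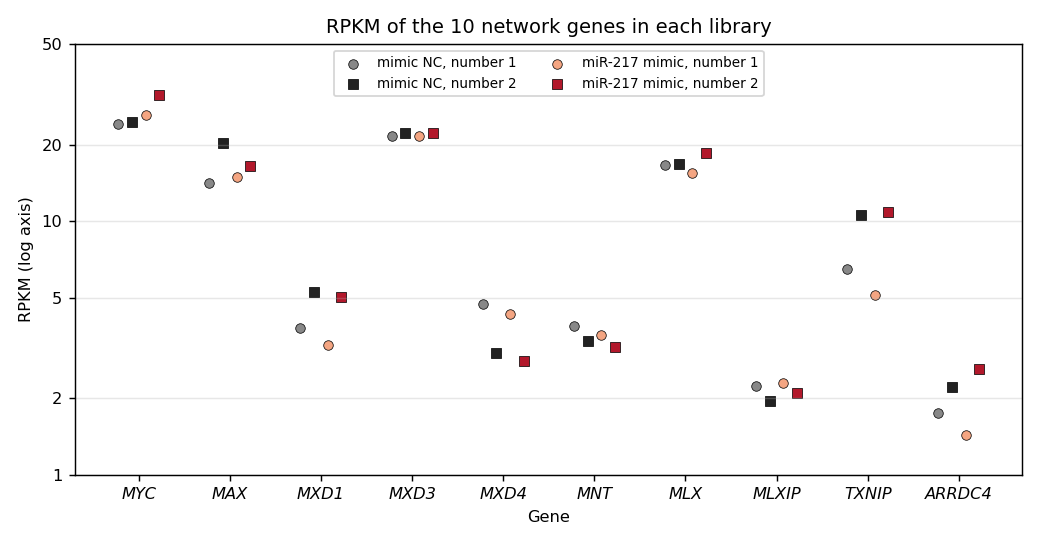
Each point is the RPKM (log axis) of a network gene in 1 of the 4 libraries, with circles for libraries numbered 1, squares for those numbered 2, grey and black for mimic NC, and orange and red for miR-217 mimic. MYC spanned 24.2 to 31.3 RPKM and TXNIP 5.13 to 10.9 RPKM, and the squares of TXNIP lie above both its circles.

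Among the paralogs that complete the family, MYCN and MYCL were at 0 to 0.0307 RPKM and MLXIPL, which encodes ChREBP, was at 0.245 to 0.276 RPKM, so these 3 genes were below the filter. The repressors MXI1 and MGA were at 2.89 to 3.86 and 7.92 to 9.25 RPKM. MLX, the shared partner, exceeded MLXIP 6.75 to 8.78 times per length in each library, with the bases it shares with PSMC3IP included. MAX was lower than MYC in each library, at 0.529 to 0.828 of its RPKM.

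The first question was whether miR-217 mimic changed the network relative to mimic NC. None of the 10 genes passed an adjusted p of 0.05 in limma on log2(RPKM + 1), with the Benjamini-Hochberg adjustment over 13871 genes, and none had an unadjusted p under 0.05. Over all tested genes 0 (0.0%) passed the adjusted threshold and 165 genes had an unadjusted p under 0.05. limma voom on the recovered reads also called 0 genes at the adjusted threshold, with 82 at an unadjusted p under 0.05. An unadjusted p under 0.05 together with a log2 difference of at least 0.32 was reached by 1.15% of all tested genes and by 0 network genes. The values of the groups did not overlap for 23.2% of tested genes and for 1 network gene, MYC. With 2 libraries in each group, the smallest two-sided p that an exact permutation test allows is 0.333.

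MYC (chr8:127735434-127741434, plus strand), the activator of the network, was at 24.2 and 24.6 RPKM in mimic NC 1 and 2, and at 26.3 and 31.3 RPKM in miR-217 mimic 1 and 2. Both miR-217 mimic libraries lay above both mimic NC libraries, and the second stood highest. The means were 24.4 ± 0.297 RPKM in mimic NC and 28.8 ± 3.52 RPKM in miR-217 mimic (SD, n = 2 each). The log2 difference was 0.23 (95% confidence interval -0.13 to 0.59, adjusted p = 1.00 in limma). It was 0.12 between the libraries numbered 1 and 0.34 between those numbered 2.

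MAX (chr14:65006174-65102695, minus strand), the obligate partner of MYC, was at 14.2 and 20.3 RPKM in mimic NC and at 14.9 and 16.6 RPKM in miR-217 mimic. The groups overlapped, with mimic NC 2 highest, and the log2 difference of -0.11 (interval -0.63 to 0.42) was 0.07 between the libraries numbered 1 and -0.28 between those numbered 2. Without mimic NC 2 it was 0.14.

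The repressors differed by at most 0.12 in size on the log2(RPKM + 1) scale, and none was called. MXD1 (chr2:69897688-69942945, plus strand), a repressor linked to differentiation and the gene with 2 seed matches, was at 3.79 and 5.28 RPKM in mimic NC and at 3.26 and 5.02 RPKM in miR-217 mimic. Its log2 difference was -0.12 (interval -0.72 to 0.49), with -0.17 and -0.06 within the numbers, and the groups overlapped. MXD3 (chr5:177301461-177312757, minus strand), an MXD repressor known from dividing cells and with 1 seed match, was nearly level at 21.6 and 22.2 RPKM in mimic NC and 21.7 and 22.2 RPKM in miR-217 mimic, a log2 difference of 0.00 (interval -0.30 to 0.30). MXD4 (chr4:2247432-2262294, minus strand) and MNT (chr17:2384060-2401118, minus strand), a broadly expressed antagonist of MYC, differed by -0.09 and -0.07 with overlapping groups. Their intervals were -0.75 to 0.57 and -0.40 to 0.25. The summed level of the 4 repressors was 32.8 to 34.0 RPKM in the 4 libraries, and at most 12.4 RPKM without MXD3.

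MLX (chr17:42567068-42573239, plus strand) was at 16.7 RPKM in both mimic NC libraries and at 15.5 and 18.5 RPKM in miR-217 mimic, on either side of them. MLXIP (chr12:122078722-122147347, plus strand) was at 2.25 and 1.95 RPKM in mimic NC and at 2.29 and 2.11 RPKM in miR-217 mimic. The log2 differences of this DNA-binding pair were 0.02 (interval -0.34 to 0.38) and 0.05 (interval -0.27 to 0.37).

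The MondoA targets also overlapped between the groups. TXNIP (chr1:145992435-145996600, minus strand), which binds thioredoxin and promotes removal of glucose transporters from the cell surface, was at 6.45 and 10.6 RPKM in mimic NC and at 5.13 and 10.9 RPKM in miR-217 mimic. Its log2 difference of -0.12 had the widest interval of the network, -1.13 to 0.89. This fit had no replicate term, so the TXNIP difference between the numbers entered its spread. The difference with miR-217 mimic was -0.28 between the libraries numbered 1 and 0.04 between those numbered 2. ARRDC4 (chr15:97960698-97973838, plus strand), its alpha-arrestin relative, was at 1.75 and 2.22 RPKM in mimic NC and at 1.44 and 2.62 RPKM in miR-217 mimic, a log2 difference of 0.00 (interval -0.60 to 0.59) that was -0.18 and 0.17 within the numbers. The smallest read counts of the network were those of ARRDC4, 312 to 429 per library.

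As a whole the network's median difference with miR-217 mimic was -0.04 on the log2 scale, compared with -0.02 over all tested genes, and the median size regardless of sign was 0.083 compared with 0.086. The genes with a seed match, MXD1, MXD3, MLX and MAX, differed by -0.12 to 0.02. The values of MXD1, MXD3 and MLX include the bases shared with other genes. How far their own transcripts changed was therefore not determined.

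**Figure D2:**
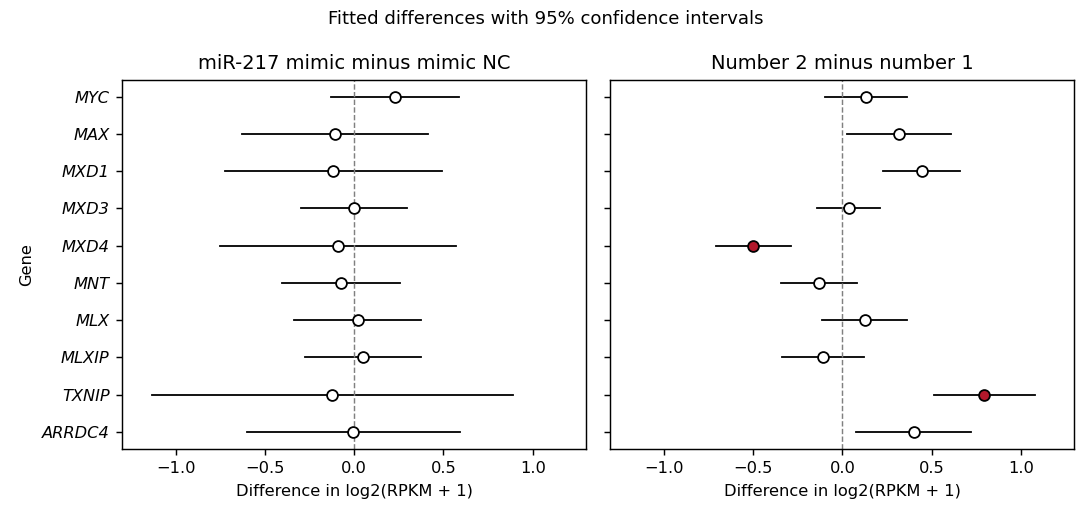
Points are the differences in log2(RPKM + 1) of each network gene from limma and lines are 95% confidence intervals, for miR-217 mimic minus mimic NC on the left and for libraries numbered 2 minus those numbered 1 on the right, where filled points passed an adjusted p of 0.05. On the left every interval includes 0, and on the right TXNIP at 0.79 and MXD4 at -0.50 are filled.

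A larger difference in the network lay between the replicate numbers, with treatment as a term in the fit. The fit for miR-217 mimic had no replicate term, so differences between the numbers entered its spread. The calls of the contrasts thus come from unlike fits. With a replicate term, 1046 of 13871 tested genes had an unadjusted p under 0.05 in limma with miR-217 mimic, and 0 passed the adjusted threshold. TXNIP was higher and MXD4 lower in the libraries numbered 2 (limma adjusted p = 0.0354 and 0.0416), 2 of 10 genes compared with 8.38% of all tested genes. On simulated counts the fit with both terms called more unchanged genes than its threshold implies, which limits all adjusted calls between the numbers. Past an unadjusted p of 0.05 and a log2 difference of 0.32 there were 4 network genes, TXNIP, MXD1 and ARRDC4 as higher and MXD4 as lower, compared with 20.9% of all tested genes. Values did not overlap between the numbers for 9 of the 10 genes, the exception being MYC, compared with 62.4% of all tested genes. The median difference was 0.13 over the network and -0.04 over all tested genes, and the median size regardless of sign was 0.225 and 0.166. Depth, the mitochondrial share and the markers of the cell line, of which KRT18 and CAV1 were lower and CD44 and AXL differed the other way, went with the number too, and cannot be told apart from it in these 4 libraries.

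TXNIP was at 6.45 and 5.13 RPKM in the libraries numbered 1 of mimic NC and miR-217 mimic, and at 10.6 and 10.9 RPKM in those numbered 2. Both libraries numbered 2 thus stood clear of both numbered 1, with means of 10.7 ± 0.219 and 5.79 ± 0.936 RPKM (SD, n = 2 each), a ratio of 1.85. The log2 difference was 0.79 (SE 0.105, interval 0.51 to 1.08, limma adjusted p = 0.0354), and it was 0.63 within mimic NC and 0.95 within miR-217 mimic. By size it ranked 340 of the 13871 genes tested. With no filter on low values the call was lost (limma adjusted p = 0.132), as were nearly all calls between the numbers over the tested genes. Fits that left out mimic NC 1 or miR-217 mimic 1 also lost it, along with nearly all other calls. The TXNIP difference stayed between 0.65 and 0.94.

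ARRDC4 differed in the same direction as TXNIP in each group, 0.23 within mimic NC and 0.57 within miR-217 mimic. The ratio of its means was 1.52 and its log2 difference was 0.40 (SE 0.119, interval 0.08 to 0.72), which did not pass the adjusted threshold (limma adjusted p = 0.104). With limma voom on the recovered reads it was 0.58 and passed (adjusted p = 0.0287), as did 23.7% of all tested genes. TXNIP remained 3.57 to 4.75 times as abundant as ARRDC4 per length in each library.

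The factors that act on these targets were not called. MLXIP was 0.11 lower on the log2 scale in the libraries numbered 2 (limma adjusted p = 0.415) and MLX was 0.13 higher (0.371). Within mimic NC, MLX differed by 0.01, and within miR-217 mimic by 0.25. The MLX values include the bases shared with PSMC3IP, which itself was higher in the libraries numbered 2, by 0.38 (limma adjusted p = 0.0481). How far this enters the MLX difference was not tested.

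Among the repressors, MXD1 and MXD4 differed in opposite directions. MXD4 was at 4.72 and 4.32 RPKM in the libraries numbered 1 of mimic NC and miR-217 mimic, and at 3.01 and 2.80 RPKM in those numbered 2. All 4 values split by number, and the log2 difference of -0.50 (SE 0.077, interval -0.71 to -0.29, limma adjusted p = 0.0416) was -0.51 within mimic NC and -0.49 within miR-217 mimic. As for TXNIP, the MXD4 call was lost with no filter (limma adjusted p = 0.140) and without mimic NC 1 or miR-217 mimic 1. Nearly all calls between the numbers were lost in these settings. MXD1 was 0.44 higher (SE 0.080, interval 0.23 to 0.66), with 0.39 and 0.50 within the groups, just missing the adjusted threshold (limma adjusted p = 0.0504). It passed with median centring (0.0375) and with limma voom (0.00418). MXD4 was therefore above MXD1 per length in the libraries numbered 1, by ratios of 1.24 and 1.32, and below it in those numbered 2, at 0.571 and 0.558, with the bases that MXD1 shares with SNRNP27 included. SNRNP27 itself differed by 0.10 within each group.

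MXD3 and MNT showed no such split beyond their intervals. The difference of MXD3 between the numbers was 0.04 (interval -0.14 to 0.21) and that of MNT was -0.13 (interval -0.34 to 0.08).

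MAX was 0.32 higher on the log2 scale in the libraries numbered 2 (SE 0.108, interval 0.03 to 0.61, limma adjusted p = 0.129), more within mimic NC, at 0.49, than within miR-217 mimic, at 0.14, a contrast that was not tested. With limma voom its adjusted p was 0.0348. MYC differed by 0.13 (interval -0.09 to 0.36, limma adjusted p = 0.331), and its values for the numbers overlapped. Fits without a treatment term gave MYC differences of 0.30 without mimic NC 2 and -0.04 without miR-217 mimic 2. Each leaves a single library numbered 2, so treatment and number are mixed in these values.

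**Figure D3:**
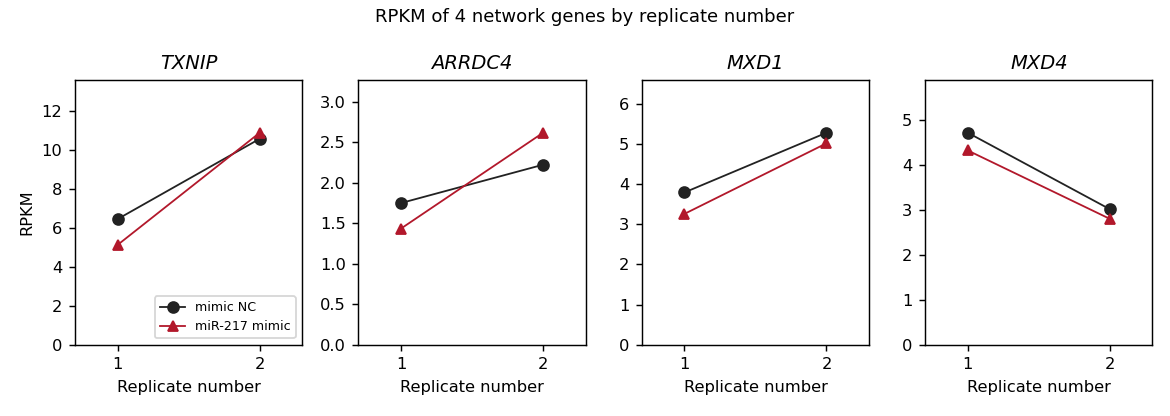
RPKM of TXNIP, ARRDC4, MXD1 and MXD4 in the libraries numbered 1 and 2, in black for mimic NC and red for miR-217 mimic, where a line joins the libraries of a group and does not stand for a pairing of cultures. TXNIP, ARRDC4 and MXD1 are higher in both libraries numbered 2, whereas MXD4 is lower, at 3.01 and 2.80 RPKM.

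The surroundings of the network were read from 7 gene lists with 86 tested genes, of which 0 passed an adjusted p of 0.05 in limma with miR-217 mimic, 1 had an unadjusted p under 0.05 (165 of 13871 over all tested genes), and 11 (12.8%) passed the adjusted threshold between the numbers, compared with 8.38% of all tested genes. That gene was SLC2A1, the glucose transporter GLUT1, at 16.1 and 19.3 RPKM in mimic NC and 12.8 and 12.6 RPKM in miR-217 mimic. Both miR-217 mimic libraries were below both mimic NC libraries, by a log2 difference of -0.44 (adjusted p = 1.00 in limma). The groups did not overlap for 23.2% of all tested genes. SLC2A1 was named for its p-value on these same values, so its split by group follows from that choice.

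In the list of glucose entry and other MondoA targets, all 10 genes were tested and their median difference between the numbers was -0.06. HK1, the hexokinase that opens glycolysis in most cells, was lower at -0.42 (limma adjusted p = 0.0456), and none was called higher. HK2, its inducible relative, differed by 0.32 (adjusted p = 0.0716) and GPI, the next enzyme of glycolysis, by -0.30 (adjusted p = 0.101). Neither TXNIP nor ARRDC4 is in this list.

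The other alpha-arrestins gave no call among 3 tested genes, with ARRDC1 at -0.05, ARRDC2 at 0.07 and ARRDC3, a regulator of receptor trafficking, at 0.13. In the thioredoxin system, which TXNIP acts on, none of 4 tested genes was called. TXNRD1, the cytosolic thioredoxin reductase, differed by 0.31 (limma adjusted p = 0.0775), TXN by -0.22 and the mitochondrial TXN2 by -0.16. In the other family genes MXI1 and MGA, the differences of 0.16 and 0.13 were not called either. By unadjusted p under 0.05, TXNRD1 was the only gene of these 3 lists.

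The 21 genes that encode MYC cofactors and factors of MYC turnover had a median of -0.03 between the numbers. There was 1 call, compared with 8.38% of all tested genes. AURKA, a mitotic kinase that stabilizes MYC proteins, was lower at -0.50 (limma adjusted p = 0.0379). The deacetylase HDAC1 differed by -0.28 (adjusted p = 0.0759).

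Genes of ribosome biogenesis, the best known MYC targets, had mostly positive differences between the numbers. The median of 24 genes was 0.26 compared with -0.04 over all tested genes. Among all 13871 tested genes, 6127 differences were positive and 7744 negative, and 512 genes passed as higher and 651 as lower. In the list 21 genes had a positive and 3 a negative difference, and 4 passed as higher and 0 as lower. They were DKC1, the pseudouridine synthase of the nucleolus, at 0.79 (limma adjusted p = 0.0230), NCL, nucleolin, at 0.60 (0.0408), NOLC1 at 0.58 (0.0313) and WDR43 at 0.56 (0.0323), the last named after its value was seen. With limma voom 16 of these genes passed as higher, where 10.0% of all tested genes did. Summed over the list, the level was 2908 and 3159 RPKM in the libraries numbered 1 and 3890 and 4478 RPKM in those numbered 2, largely NPM1 and NCL. With miR-217 mimic the median of the list was 0.14 compared with -0.02 over all tested genes. In the list 22 differences were positive and 2 negative, compared with 6157 and 7714 over all tested genes. There 0 genes of the list passed the adjusted or an unadjusted p of 0.05 in limma.

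The MYC targets of metabolism and growth showed no common direction. Of 22 tested genes, 11 had positive and 11 negative differences between the numbers, with a median of 0.01. As higher 4 passed and as lower 1, compared with 512 and 651 of all 13871 tested genes. SHMT2 at 1.24 (limma adjusted p = 0.0209) and MTHFD2 at 0.81 (0.0224) are enzymes of mitochondrial one-carbon metabolism, and ODC1 at 0.53 (0.0385) makes polyamines. The cell cycle kinase CDK4 at 0.38 (0.0494) was higher and PHB, prohibitin, was lower at -0.45 (0.0407), both named after their values were seen. With miR-217 mimic the median of this list was 0.04. The calls of HK1, AURKA, DKC1, NCL, NOLC1, SHMT2, MTHFD2 and ODC1 were lost with no filter on low values and without either library numbered 1. Nearly all calls between the numbers over the tested genes were lost in these settings too.

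**Figure D4:**
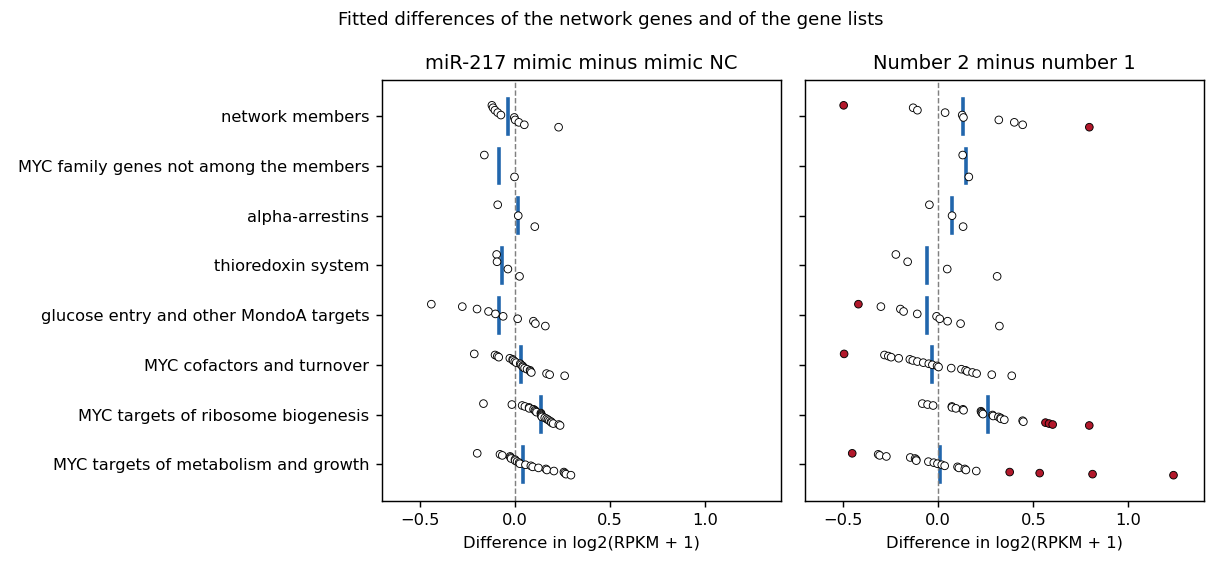
Points are the differences in log2(RPKM + 1) of the network genes and of the tested genes in each of 7 lists, filled where the adjusted p was under 0.05, and the blue bar is the median of a list. On the right, libraries numbered 2 minus those numbered 1, the bar for ribosome biogenesis lies at 0.26, and on the left, miR-217 mimic minus mimic NC, no point is filled.

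Patterns over the 4 libraries were set against all tested genes by the distance between log2(RPKM + 1) values, each gene centred on its own mean, which describes likeness in 4 libraries only. Closest to TXNIP were RP11-54O7.18 at a distance of 0.0404, CEBPB, a leucine zipper transcription factor, at 0.0470, and AC005154.8 at 0.0874. MXD1 ranked 289 and ARRDC4 ranked 404 by likeness to TXNIP, and MYC ranked 4166. ARRDC4 was closest to COL7A1 (0.0365), the collagen of anchoring fibrils, OSMR (0.0685), the oncostatin M receptor, and FOXO1 (0.0700), a transcription factor. MYC was closest to NOP16 (0.0118), a nucleolar protein in the ribosome biogenesis list, RBFA (0.0161) and SMG1P6 (0.0196), a pseudogene that can share reads with its copies. NOP16 was at up to 29.3 RPKM in mimic NC and at 31.6 and 37.7 RPKM in miR-217 mimic. It was picked for its likeness to MYC over these same values, so its split by group follows from that choice.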

How the data were processed

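RNA-seq of 4 MDA-MB-231 libraries was analysed, and groups and numbers were taken from the sample labels. The authors deposited RPKM values, scaled by the reads on all listed genes and by summed exon length, which the table also lists in bases. Their processing notes name hg38, Trimmomatic 0.36, featureCounts, Subread 1.5.1 and edgeR 3.12.1, and the aligner and annotation are not given in the sources used here. Of the nonzero values, 100% were whole reads (tolerance 0.01 reads), so reads were recovered.

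Values were tested as log2(RPKM + 1), which understates changes of low genes, with limma 3.58.1 in R 4.3.3 (lmFit, eBayes with trend, two-sided, Benjamini-Hochberg) for genes with a mean of at least 1 RPKM. miR-217 mimic was compared with mimic NC without a replicate term, and number 2 with number 1 with treatment as a term. The fits were tested on simulated counts, where the fit with both terms called more unchanged genes than its threshold implies. The genes, lists and tests were chosen with earlier results of these data known. The text names all 10 members, in each list the 3 genes with the largest difference between the numbers and any past both lines (unadjusted p under 0.05, log2 difference of at least 0.32) with miR-217 mimic, and the 3 genes most like TXNIP, ARRDC4 and MYC. A gene that this rule names is not reported here. The settings varied were the pseudocount (0.1), the filter (none, or a mean of at least 5 RPKM), and the scaling (median centring), and fits were made with limma voom on the reads, a replicate block, no treatment term and each library left out. Plots were made with matplotlib 3.10.9 in Python 3.11.15.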

Additional observations from a re-analysis of the deposited data

How the results depend on the processing

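With miR-217 mimic 0 genes passed the adjusted threshold under every alternative. The 159 genes past both lines became 314 with no filter, 47 at a mean of at least 5 RPKM, 82 with limma voom and 487 with the replicate block, and 93 (without mimic NC 2) to 866 (without miR-217 mimic 1) when a library was left out, the lone library being taken to vary like the other group. Between the numbers, 1163 adjusted calls became 3 with no filter and 3282 with limma voom, and 9 (without mimic NC 1; 13 without miR-217 mimic 1) to 3931 (without mimic NC 2; 1761 without miR-217 mimic 2) when a library was left out, fits that have no treatment term. The 2900 genes past both lines became 1636 at a mean of at least 5 RPKM, and 1832 (without mimic NC 1) to 4031 with a library left out. The causes were not tested.

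The sign of the ARRDC4 difference with miR-217 mimic turned under median centring, to 0.0217. Leaving out a library turned the sign of several differences with miR-217 mimic, whose ranges were -0.35 to 0.14 for MAX, -0.37 to 0.13 for MXD1, -0.0191 to 0.0196 for MXD3, -0.35 to 0.16 for MXD4, -0.10 to 0.14 for MLX, -0.0199 to 0.12 for MLXIP, -0.60 to 0.36 for TXNIP and -0.29 to 0.28 for ARRDC4. Between the numbers it turned those of MYC (-0.0362 to 0.30), ARRDC2 (-0.0173 to 0.16) and SLC2A1 (-0.17 to 0.40, with -0.0381 without miR-217 mimic 1).

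With 2 numbers of unstated meaning, the numbers were not taken to pair the libraries, although deviations of libraries with the same number correlated at 0.680. With the replicate block 0 network genes passed the adjusted threshold, and MYC had an unadjusted p of 0.0492 in limma (adjusted p = 0.633). At a mean of at least 5 RPKM, MXD1, MXD4, MNT, MLXIP and ARRDC4 give no value. Counting error is largest for ARRDC4, with 312 to 429 reads per library.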
